A study of Mus musculus with 8 samples.

Results

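E1-KO mouse embryonic stem cells, which lack an enhancer named E1 in the study's labels, were compared with the unedited parental line (WT) across all measured genes. The comparison uses 4 of the 8 RNA-seq samples of the series, 2 titled E1-KO and 2 titled WT. The other 4 samples, 2 titled E2-KO and 2 titled E3-KO, which lack other enhancers, entered the same model and were used to find genes in which E1-KO also differed from them. All 8 samples came from E14TG2a, a 129/Ola embryonic stem cell line, at passages 3 to 6. The cells grew without feeder cells on gelatin, in medium with serum, leukaemia inhibitory factor (LIF), the GSK3 inhibitor CHIR99021 and the MEK inhibitor PD0325901. The enhancers were removed with CRISPR/Cas9, and the study asked how promoter-enhancer associations bear on the functions of Sox2. The labels call the 2 samples of each group biological duplicates. They give neither the position of E1 nor the number of edited clones, and no edited line that keeps its enhancers is part of the series. An effect of the deletion therefore cannot be told apart from differences between clones, cultures or RNA preparations.

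Sox2 is a transcription factor that binds DNA together with Oct4 (Pou5f1) at many enhancers of embryonic stem cells and is needed to keep them pluripotent. Stem cells held with LIF and inhibitors of GSK3 and MEK approach the naive state of the early epiblast. Naive cells express Klf2, Klf4, Tfcp2l1 and Prdm14 and carry little DNA methylation. On the way to the formative state, which precedes lineage choice, cells lower these factors and raise the de novo DNA methyltransferases. Inhibition of GSK3 stabilises beta-catenin and raises WNT target genes, and inhibition of MEK lowers targets of the kinase ERK. The gene lists below follow these pathways.

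Sox2 was 58.0 and 60.3 FPKM (a level corrected for transcript length and for the number of mapped fragments) in E1-KO and 131 and 136 FPKM in WT. The 2 groups did not overlap. The level was 59.2 ± 1.58 (SD, n = 2) in E1-KO and 133 ± 4.05 (SD, n = 2) in WT. On the log2(FPKM + 1) scale, on which every difference below is given, Sox2 fell by 1.16 (SE 0.104, limma-trend adjusted p = 0.000168). It was 97.5 and 114 FPKM in E2-KO and 91.0 and 97.7 FPKM in E3-KO, so both E1-KO samples were the lowest of the 8. The difference was -0.82 from E2-KO (limma-trend adjusted p = 0.016) and -0.66 from E3-KO (adjusted p = 0.00223). E1-KO was singled out here as the line with the deepest Sox2 loss, so its rank among the knockouts was fixed by that choice. The p-values against E2-KO and E3-KO therefore lend that rank no support. The choice also favoured a large fall from WT, so the p-value against WT is no independent test of that fall. Limma-trend is a linear model with moderated variances, fitted to all 8 samples, and its p-values are two-sided and adjusted by the Benjamini-Hochberg method over all genes tested. An exact permutation test of 2 samples against 2 cannot give a p below 0.333, so the calls rest on the spread shared by all groups. The 250 bases before the Sox2 start (RefSeq, GRCm38.p6, chr3:34649745-34649994, plus strand) are shown because Sox2 is the gene around which the study was built, with the CpG pairs in capitals. This window holds 27 CpG pairs, a number reached by 8.56% of RefSeq promoter windows of that length.
Sox2: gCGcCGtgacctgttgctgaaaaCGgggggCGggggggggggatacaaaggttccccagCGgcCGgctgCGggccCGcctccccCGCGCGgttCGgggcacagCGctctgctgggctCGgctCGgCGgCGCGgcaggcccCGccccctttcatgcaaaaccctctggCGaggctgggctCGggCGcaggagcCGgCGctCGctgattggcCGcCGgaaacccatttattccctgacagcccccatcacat

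Genes were tested if their mean level in the 8 samples reached 1 FPKM. Of the 11267 genes tested, 4283 (38.0%) were called at an adjusted p under 0.05. The called genes comprised 1694 that were higher in E1-KO (15.0% of those tested) and 2589 that were lower (23.0%). The count of every gene list below is to be read beside these shares. A difference of at least 1 log2 unit was seen in 285 of the higher and 422 of the lower genes. The E1-KO and WT samples did not overlap in 8673 of the tested genes (77.0%), among them all 4283 that were called. A lack of overlap, where given below, therefore adds nothing to a call. The calls numbered 2132 without E1-KO replicate 1, 2578 without E1-KO replicate 2, 2407 without WT replicate 1 and 2039 without WT replicate 2. Leaving out a library leaves 1 sample in that arm, which is assumed to vary as the other groups do. A total of 1687 genes (15.0%) were called in the same direction in all 4 of these fits, 653 of them higher (5.80%) and 1034 lower (9.18%). The genes named below as having risen or fallen belong to these 1687 unless values without a library are given. The split between directions depended on scaling, with 2042 higher and 2131 lower after quantile normalization and 2060 and 2169 after median-ratio scaling. FPKM summed to 481695 and 488330 in the E1-KO samples and to 470170 and 480760 in the WT samples. FPKM is a share of each library, so a fall of one gene is a fall relative to the other RNA in the sample. In these bulk samples, fewer cells of a type and less RNA per cell cannot be told apart.

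**Figure D1:**
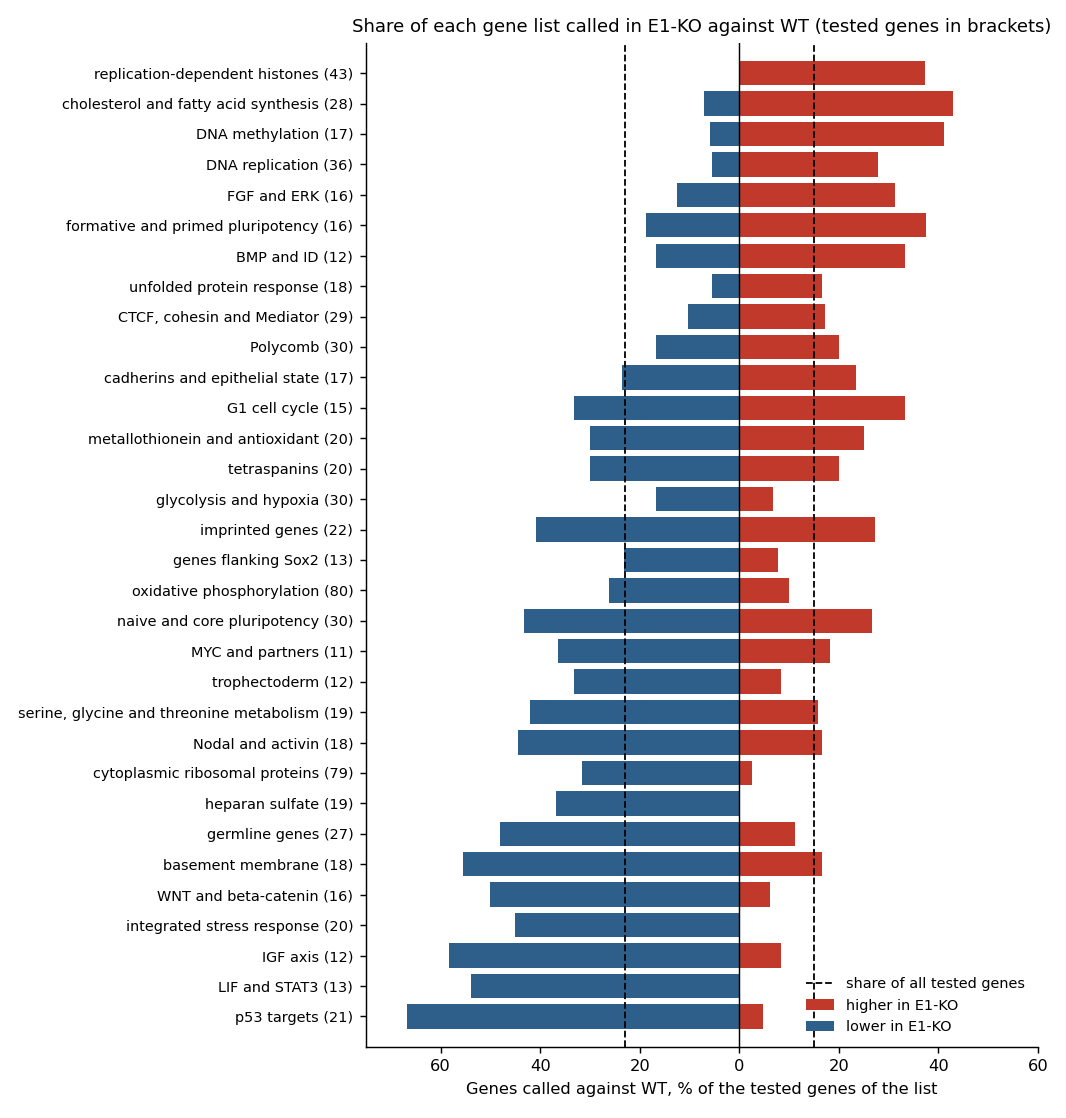
Share of the tested genes of each list that were called higher (red, to the right) or lower (blue, to the left) in E1-KO than in WT, in percent, with the number of tested genes in brackets; dashed lines mark the shares among all tested genes, 15.0% higher and 23.0% lower. Lists with at least 10 tested genes are shown, and p53 targets reach 66.7% lower while cholesterol and fatty acid synthesis reaches 42.9% higher.

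Several naive pluripotency factors, among them Klf2, Klf4, Tfcp2l1 and Prdm14, were lower in E1-KO, while the core factors Pou5f1 and Nanog did not pass the test. Of 30 listed genes of naive and core pluripotency, all with values and all tested, 8 rose and 13 fell, beside 15.0% and 23.0% of all tested genes. In the order E1-KO replicate 1, E1-KO replicate 2, WT replicate 1 and WT replicate 2, which is kept below, leaving out each library in turn left 4, 6, 5 and 5 higher and 11, 10, 12 and 10 lower. Tfcp2l1, a transcription factor downstream of LIF, was 73.4 and 87.2 FPKM in E1-KO and 159 and 165 FPKM in WT. Klf4, a Krüppel-like factor, was 84.3 and 87.9 FPKM against 159 and 181 FPKM. Prdm14, a repressor of the FGF pathway and of DNA methylation in these cells, was 11.2 and 11.5 FPKM against 19.5 and 21.7 FPKM. None of the 3 groups of values overlapped, and the differences were -1.01 (SE 0.109), -0.97 (SE 0.113) and -0.81 (SE 0.116), at limma-trend adjusted p-values of 0.00033, 0.00045 and 0.00112.

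Klf2, a further Krüppel-like factor of the naive state, was 59.1 and 67.0 FPKM in E1-KO and 109 and 121 FPKM in WT (difference -0.86, SE 0.118, limma-trend adjusted p = 0.000922). Its level was 109.5 and 112 FPKM in E2-KO and 116 and 139 FPKM in E3-KO. Both E1-KO samples thus lay below all 6 others, while Klf4 was as low in the other knockouts, at 68.9 to 82.3 FPKM in their 4 samples. Tcl1, a coactivator of AKT, fell by 1.46 (SE 0.134), Tdh, a threonine dehydrogenase of mouse stem cells, by 0.82 (SE 0.155), and Dppa5a, an RNA-binding protein of pluripotent cells, by 0.70 (SE 0.133). Tbx3 and Nr5a2 also fell. Of the whole list, 4 genes rose and 10 fell in all 4 fits without a library.

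Pou5f1 was 428 and 467 FPKM in E1-KO and 360.0 and 382 FPKM in WT, a difference of 0.27 (SE 0.133) with a limma-trend adjusted p of 0.138. Nanog was 508 and 522 FPKM against 450.4 and 467 FPKM, a difference of 0.17 (SE 0.127) with an adjusted p of 0.33. For both genes the E1-KO samples lay above the WT samples, but by less than the test required. Zfp42, Klf5 and Sall4 did not pass either. The genes of the list that rose include L1td1, an RNA-binding protein of pluripotent cells, at 268 and 288 FPKM in E1-KO and 84.1 and 96.5 FPKM in WT. Dppa2, a chromatin factor of the early embryo, was 55.7 and 59.7 FPKM against 20.9 and 21.5 FPKM. L1td1 rose by 1.61 (SE 0.188), Dppa2 by 1.40 (SE 0.157) and Utf1, a chromatin-bound pluripotency factor, by 1.23 (SE 0.210). Dppa4, the partner of Dppa2, was 204 and 219 FPKM against 65.6 and 66.3 FPKM, with an adjusted p of 0.00888 that became 0.0544 without E1-KO replicate 1 and 0.0519 without WT replicate 2. Lin28a, which blocks maturation of let-7, was 1.31 higher, with an adjusted p of 0.00868 that became 0.0664 without E1-KO replicate 1 and 0.0544 without WT replicate 1.

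**Figure D2:**
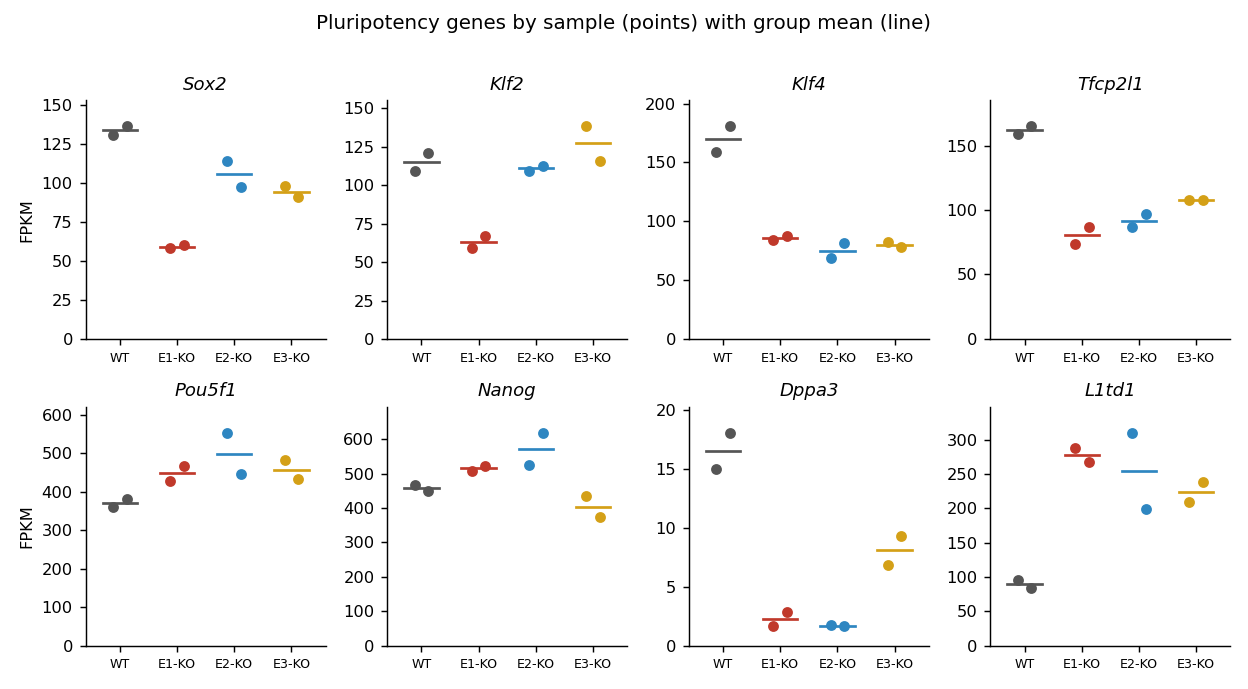
FPKM of 8 pluripotency genes in each of the 8 samples (points, 2 per group) with the group mean (line); each vertical axis starts at 0. Sox2 and Klf2 are lowest in the 2 E1-KO samples, Klf4 and Tfcp2l1 are lower than WT in all 3 knockouts, while Pou5f1 and Nanog did not pass the test between E1-KO and WT.

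Formative markers moved in both directions. Of 22 listed, 20 had values and 16 were tested. Of these, 6 rose (37.5%) and 3 fell (18.8%), beside 15.0% and 23.0% of all tested genes. Tcf15, a transcription factor that primes cells for differentiation, was 18.8 and 21.4 FPKM in E1-KO and 2.80 and 5.68 FPKM in WT. Its 2 groups were far apart (difference 2.07, SE 0.245, limma-trend adjusted p = 0.000489). Otx2, a regulator of the formative state, was 5.20 and 6.02 FPKM in E1-KO and 14.9 and 16.5 FPKM in WT. Otx2 fell by 1.34 (SE 0.138, limma-trend adjusted p = 0.000281), and its difference from WT was -1.77 in E2-KO and -1.35 in E3-KO. Grhl2, which opens epithelial enhancers during that transition, was 0.572 and 0.775 FPKM against 3.40 and 3.48 FPKM and fell by 1.41 (SE 0.155). The remaining genes that rose include Etv4 and the 3 de novo methylation genes. Leaving out the libraries in turn left 5 higher each time and 2, 2, 3 and 2 lower.

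The de novo DNA methylation genes were higher in E1-KO, whereas the maintenance genes did not pass the test. Dnmt3l, the catalytically inactive partner that stimulates the de novo enzymes, was 45.6 and 54.9 FPKM in E1-KO and 8.38 and 8.69 FPKM in WT. Dnmt3a was 22.9 and 24.6 FPKM against 7.67 and 8.59 FPKM. Dnmt3b was 35.4 and 35.7 FPKM against 15.3 and 17.3 FPKM. No E1-KO value of these 3 genes overlapped with WT, and the differences were 2.42 (SE 0.217), 1.44 (SE 0.241) and 1.08 (SE 0.111), at limma-trend adjusted p-values of 0.00017, 0.00227 and 0.000272. Dnmt3l overlaps Aire on the opposite strand, and the labels do not state whether counting used strand. Dnmt1, the maintenance methyltransferase, was 88.7 and 92.4 FPKM against 99.0 and 104 FPKM (adjusted p = 0.236), and its recruiter Uhrf1 had an adjusted p of 0.0873. Of the 18 listed DNA methylation genes, 17 were tested, 7 rose and 1 fell, and the count of higher genes without each library was 4, 5, 4 and 5. The list holds oxidases and readers too: Tet1 was not called (adjusted p = 0.627).

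Germline genes, many of which are silenced by promoter methylation in somatic cells, were more often lower than higher. Of 37 listed, 35 had values and 27 were tested; 3 rose and 13 fell, beside 15.0% and 23.0% of all tested genes. Without each library the lower genes numbered 8, 6, 7 and 8. Tdrd12, a helicase of the piRNA pathway, was 1.22 and 1.43 FPKM in E1-KO and 16.4 and 16.9 FPKM in WT. It was 2.71 and 2.91 FPKM in E2-KO and 2.83 and 2.99 FPKM in E3-KO, and E1-KO was again the lowest. Tex15, a protein needed for meiosis and transposon silencing, was 6.15 and 6.52 FPKM in E1-KO against 25.6 and 27.2 FPKM in WT. Asz1, another piRNA pathway protein, was 0.431 and 0.439 FPKM against 3.27 and 3.73 FPKM. Each of the 3 was lower in E1-KO with no overlap, by 2.93 (SE 0.128), 1.90 (SE 0.123) and 1.65 (SE 0.225), at limma-trend adjusted p-values of 2.3e-05, 4.44e-05 and 0.000922.

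Prdm1, the repressor that starts germ cell fate, fell by 1.20 (SE 0.145), and Rec8, a meiotic cohesin, by 1.16 (SE 0.156). Dazl, an RNA-binding protein of germ cells, was 59.7 and 83.9 FPKM in E1-KO and 152 and 153 FPKM in WT (difference -1.09, SE 0.187, limma-trend adjusted p = 0.0025). The meiotic synaptonemal complex genes Syce1 and Syce2 went the other way, rising by 1.04 (SE 0.131) and 0.74 (SE 0.115). Syce2 overlaps Gcdh on the opposite strand. Ddx4, a germ cell helicase, was 5.25 and 5.39 FPKM in E1-KO and 4.80 and 5.31 FPKM in WT, with overlapping groups (adjusted p = 0.782). The Dazl window is shown as an example of the CpG content of these promoters (RefSeq, GRCm38.p6, chr17:50293621-50293870, minus strand, CpG in capitals). It holds 20 CpG pairs, a number that 17.9% of all windows reach. Over the 37 windows of 30 germline list genes the median was 15 (range 3 to 40), against 6 over all 32851 windows. The first median covers listed genes whether or not they fell, and the second includes genes not tested here. These medians therefore do not set the lowered genes apart. Methylation was not measured in these samples.
Dazl: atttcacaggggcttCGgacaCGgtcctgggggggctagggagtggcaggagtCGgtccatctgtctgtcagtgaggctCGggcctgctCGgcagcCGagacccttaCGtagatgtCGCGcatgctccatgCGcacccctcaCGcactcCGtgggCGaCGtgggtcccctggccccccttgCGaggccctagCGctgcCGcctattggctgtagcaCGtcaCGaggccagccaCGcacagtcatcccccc

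**Figure D3:**
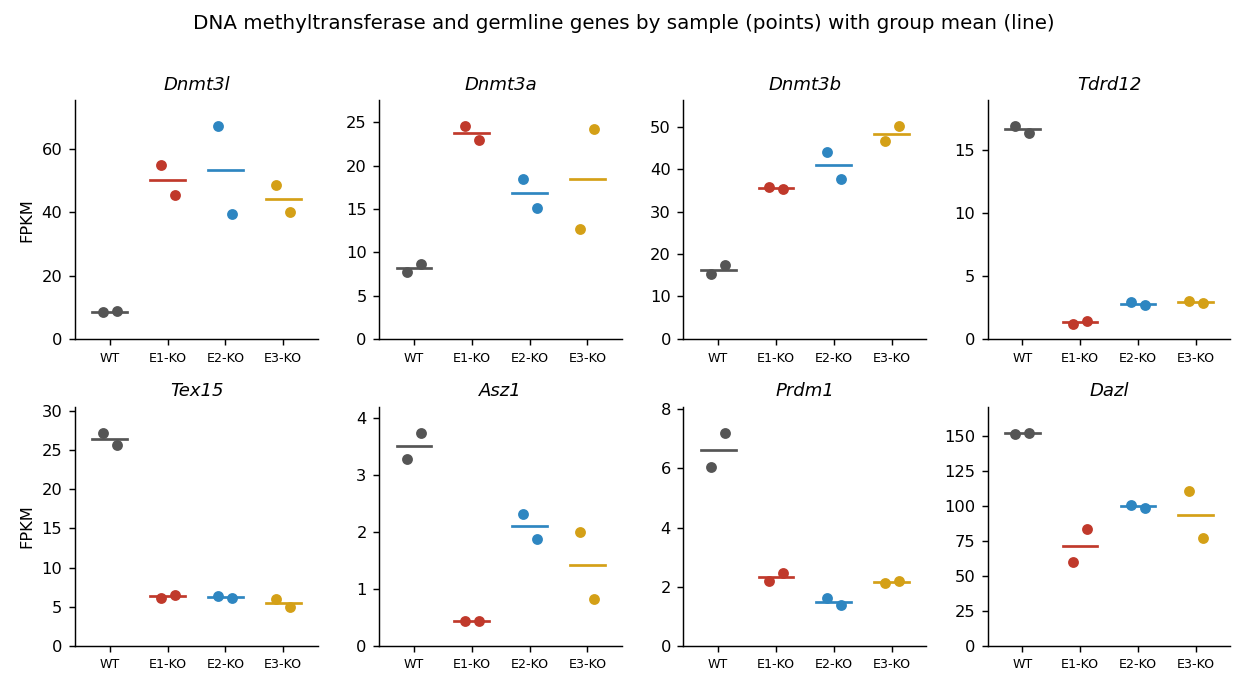
FPKM of 3 de novo DNA methylation genes and 5 germline genes in each sample (points, 2 per group) with the group mean (line); each vertical axis starts at 0. The Dnmt3 genes are higher and the germline genes lower than WT in all 3 knockouts, and Tdrd12 and Asz1 are lowest in the 2 E1-KO samples.

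A few target genes of the FGF-ERK pathway rose in E1-KO. Etv1, an ETS factor induced by ERK, was 13.6 and 14.4 FPKM in E1-KO and 2.21 and 2.34 FPKM in WT. Etv4, of the same subfamily, was 144 and 149 FPKM against 41.8 and 43.9 FPKM. Myc, the growth regulator, was 7.13 and 7.35 FPKM against 1.37 and 1.46 FPKM. Spry4, a feedback inhibitor of the pathway, was 5.83 and 5.91 FPKM against 1.68 and 1.97 FPKM. All 4 genes were higher in both E1-KO samples, by 2.19 (SE 0.129), 1.75 (SE 0.092), 1.77 (SE 0.243) and 1.28 (SE 0.281), at limma-trend adjusted p-values of 2.94e-05, 2.3e-05, 0.000946 and 0.00772. In E2-KO and E3-KO, Etv1 differed from WT by 2.18 and 2.33 and Myc by 1.75 and 0.94. Etv4 differed by 1.38 and -0.08 and Spry4 by 1.10 and -0.13. The list does not move as a whole, since Etv5, Fos, Spry1, Spry2 and Dusp5 were not called. Of 24 listed genes, 23 had values and 16 were tested. Of these, 5 rose (31.2%) and 2 fell (12.5%), beside 15.0% and 23.0% of all tested genes. The lower ones were Fgf4, a target of Sox2 and Oct4 that activates the pathway, and Spred1, a feedback inhibitor. Spred1 had an adjusted p of 0.0457 that rose to 0.101 or more whichever library was left out (0.169, 0.137, 0.101 and 0.233). Fgf4 had an adjusted p of 0.0669 without E1-KO replicate 2 and 0.0822 without WT replicate 2. Without each library, 4 were higher every time and 1, 0, 1 and 0 lower.

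BMP targets split. Id1, an inhibitor of differentiation factors, was 13.4 and 17.1 FPKM in E1-KO and 3.03 and 3.84 FPKM in WT, and rose by 1.87 (SE 0.241, limma-trend adjusted p = 0.000722). Id4, of the same family, was 0.858 and 0.874 FPKM against 3.15 and 3.93 FPKM, and fell by 1.28 (SE 0.178, limma-trend adjusted p = 0.000996). In E2-KO and E3-KO, Id1 differed from WT by 1.47 and 2.05 and Id4 by -1.06 and -1.17. Id2 and Id3 were not called in E1-KO. Dusp9, an ERK phosphatase downstream of BMP, rose by 1.39 (SE 0.135). Of 12 tested genes among 19 listed, 4 rose (33.3%) and 2 fell (16.7%), beside 15.0% and 23.0% of all tested genes. The count of higher genes without each library was 2, 4, 3 and 3, and that of lower ones was 1 each time.

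Of 16 tested WNT pathway genes, 8 were lower in E1-KO, which like WT grew with a GSK3 inhibitor. Sp5, a direct target of beta-catenin and TCF factors, was 1.18 and 1.25 FPKM in E1-KO and 9.07 and 10.8 FPKM in WT. Axin2, a feedback inhibitor and common reporter of the pathway, was 5.48 and 6.19 FPKM against 18.8 and 20.6 FPKM. Ctnnb1, which encodes beta-catenin, was 112 and 124 FPKM against 221 and 225 FPKM. The E1-KO values lay below WT for all 3, by 2.30 (SE 0.162), 1.60 (SE 0.138) and 0.92 (SE 0.108), at limma-trend adjusted p-values of 6.16e-05, 0.000153 and 0.000478. Ctnnb1 overlaps Ulk4 on the opposite strand. These falls were not particular to E1-KO. In E2-KO and E3-KO, Sp5 differed from WT by -2.99 and -2.49, Axin2 by -1.61 and -1.64, and Ctnnb1 by -0.54 and -0.77. Notum, a secreted inhibitor of WNT, and Tnfrsf19, a membrane target, each fell by 0.90 (SE 0.134 and 0.170). Tcf7, an activating TCF factor, fell by 0.58 (SE 0.108), while Tcf7l1, the repressive TCF factor of stem cells, was 57.9 and 63.3 FPKM against 33.6 and 35.4 FPKM and rose by 0.80 (SE 0.144, limma-trend adjusted p = 0.00324). Of 26 listed genes, all with values, 16 were tested, 1 rose and 8 fell, and the median difference was -0.41 against -0.062 over all tested genes. Without each library 6, 8, 6 and 6 were lower.

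The Sp5 window (RefSeq, GRCm38.p6, chr2:70474673-70474922, plus strand) is shown because it holds the letters CTTTGAT, a form of the TCF binding motif. The match, in capitals, starts 104 bases before the gene's start. On either strand the motif occurs in 3.21% of the 32851 windows of 250 bases. Windows of 2 of the 18 WNT list genes that have one hold it, those of Sp5 and Tnfrsf19. A match of letters does not show binding, and windows without one can hold other forms.
Sp5: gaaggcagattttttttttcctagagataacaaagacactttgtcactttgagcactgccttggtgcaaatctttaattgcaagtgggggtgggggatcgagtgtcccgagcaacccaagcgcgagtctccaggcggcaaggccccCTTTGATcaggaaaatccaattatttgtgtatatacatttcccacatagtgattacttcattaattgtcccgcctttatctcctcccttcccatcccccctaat

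Targets of LIF and STAT3 were lower or not called. Pim1, a kinase induced by STAT3, was 37.4 and 38.2 FPKM in E1-KO and 98.1 and 110.1 FPKM in WT, and fell by 1.44 (SE 0.104, limma-trend adjusted p = 6.62e-05). In E2-KO and E3-KO, Pim1 differed from WT by -1.22 and -1.35. Pim3 fell by 0.67 (SE 0.123). Socs3, the feedback inhibitor of the pathway, was 49.4 and 59.1 FPKM against 62.9 and 69.7 FPKM and did not pass (adjusted p = 0.0697). Klf4 and Tfcp2l1, given above, are also on this list, so its count is not separate from that of the naive factors. Of its tested genes 53.8% fell, beside 23.0% of all tested genes. Of 15 listed genes, 13 were tested, none rose and 7 fell, with 4, 6, 7 and 4 lower without each library.

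In the Nodal and activin pathway an activin subunit rose and a Nodal antagonist fell. Inhbb, a subunit of activin, was 12.03 and 12.18 FPKM in E1-KO and 2.16 and 2.22 FPKM in WT (difference 2.04, SE 0.158, limma-trend adjusted p = 8.7e-05). Lefty2, a Nodal antagonist and target, was 11.2 and 20.03 FPKM against 42.6 and 43.5 FPKM (difference -1.46, SE 0.305, limma-trend adjusted p = 0.00625). The receptor Acvr1b fell by 0.68 (SE 0.118). Of 21 listed genes 18 were tested, with 3 higher (16.7%, near the 15.0% of all tested genes) and 8 lower (44.4%, beside 23.0%). These counts were sensitive to single libraries, with 1, 2, 1 and 2 higher and 5, 6, 6 and 3 lower.

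The p53 targets had the highest share of lower genes among the lists with at least 10 tested genes. Of 22 listed genes, all with values and with Trp53 itself among them, 21 were tested. Of these, 14 fell (66.7%, beside 23.0% of all tested genes). The 1 that rose was Trp53 and not a target. The median difference over the list was -0.65. Without each library 13, 12, 13 and 12 were lower, and 12 fell in all 4 of these fits (57.1%, beside 9.18% of all tested genes). Trp53inp1, a promoter of autophagy and cell death, was 27.7 and 32.8 FPKM in E1-KO and 88.7 and 89.6 FPKM in WT. Cdkn1a, which encodes the p21 inhibitor of cyclin-dependent kinases, was 49.75 and 49.99 FPKM against 118 and 130 FPKM. Pmaip1, the BH3-only protein Noxa, was 3.82 and 4.596 FPKM against 12.4 and 13.6 FPKM. Plk2, a kinase of the stress response, was 6.07 and 7.34 FPKM against 16.1 and 19.9 FPKM. None of these groups overlapped, and the differences were -1.53 (SE 0.120), -1.29 (SE 0.153), -1.43 (SE 0.169) and -1.30 (SE 0.160), at limma-trend adjusted p-values of 8.82e-05, 0.000488, 0.000489 and 0.000576.

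Perp, Phlda3 and Bbc3, which act in cell adhesion, AKT inhibition and apoptosis, fell by 1.22 (SE 0.223), 1.10 (SE 0.195) and 0.95 (SE 0.185). Some of the best known targets did not pass the test. Mdm2, the ubiquitin ligase of p53, was 47.4 and 51.9 FPKM in E1-KO and 52.9 and 54.1 FPKM in WT (adjusted p = 0.396). Bax, the effector of mitochondrial apoptosis, was 111 and 117 FPKM against 107 and 121 FPKM (adjusted p = 0.967). Trp53, which encodes p53, was itself higher, at 173 and 175 FPKM against 132 and 133 FPKM, with a difference of 0.39 (SE 0.097) and a limma-trend adjusted p of 0.0139. That call was lost whichever library was left out, with adjusted p-values of 0.0907, 0.0754, 0.0845 and 0.0857, and with quantile normalization (adjusted p = 0.0561). Compared with E3-KO, 14 of the 21 were lower in E1-KO (9.42% of all tested genes were), and compared with E2-KO, none was (0.488% of all). Those comparisons share the E1-KO samples with the one against WT.

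In the G1 list, Ccne1, the cyclin that drives entry into S phase, was 95.0 and 99.3 FPKM in E1-KO and 30.0 and 31.0 FPKM in WT. It rose by 1.64 (SE 0.172, limma-trend adjusted p = 0.000302), with the groups far apart. In E2-KO and E3-KO, Ccne1 differed from WT by 1.70 and 0.98. Cdkn1a, described above, is on this list too. Of 21 listed genes 15 were tested, 5 rose (33.3%) and 5 fell (33.3%), beside 15.0% and 23.0% of all tested genes. Apart from Ccne1 and Cdkn1a each of these calls was lost without at least 1 library, and the counts became 2, 2, 1 and 2 higher and 3, 2, 1 and 1 lower.

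Several genes of cholesterol synthesis were higher in E1-KO. Idi1, the isomerase that makes the building block of isoprenoids, was 12.4 FPKM in both E1-KO samples and 5.19 and 5.60 FPKM in WT. Fdps, which joins these units to farnesyl diphosphate, was 96.0 and 103 FPKM against 49.2 and 52.7 FPKM. Msmo1, a sterol demethylating oxidase, was 110.4 and 112 FPKM against 56.5 and 60.4 FPKM. Dhcr7, which completes cholesterol, was 35.0 and 39.3 FPKM against 19.03 and 21.3 FPKM. The E1-KO samples were above WT for all 4, by 1.07 (SE 0.111), 0.95 (SE 0.103), 0.91 (SE 0.141) and 0.85 (SE 0.163), at limma-trend adjusted p-values of 0.000287, 0.000334, 0.00157 and 0.00419. Sqle, which begins the sterol branch, rose by 0.61 (SE 0.092).

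Of the 31 genes listed for cholesterol and fatty acid synthesis, 29 had values and 28 were tested. They comprised 12 higher (42.9%, beside 15.0% of all tested genes) and 2 lower, and the median difference was 0.31. Without each library 11, 8, 9 and 7 were higher, and 7 rose in all 4 of these fits (25.0%, beside 5.80% of all tested genes). Insig1, the sterol-responsive brake of the pathway, was 25.7 and 30.9 FPKM in E1-KO and 27.4 and 29.5 FPKM in WT, with overlapping groups (limma-trend adjusted p = 0.943). Scd1, the desaturase of saturated fatty acids, was 69.0 and 78.7 FPKM in E1-KO, 40.5 and 41.9 FPKM in WT, 34.4 and 44.1 FPKM in E2-KO and 39.3 and 49.0 FPKM in E3-KO. Both E1-KO samples were above the other 6, and the difference from WT was 0.82 (SE 0.146, limma-trend adjusted p = 0.00297). Compared with E3-KO, 22 of the 28 genes were higher in E1-KO (16.4% of all tested genes were), and compared with E2-KO, 1 was, Scd1 (0.346% of all).

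**Figure D4:**
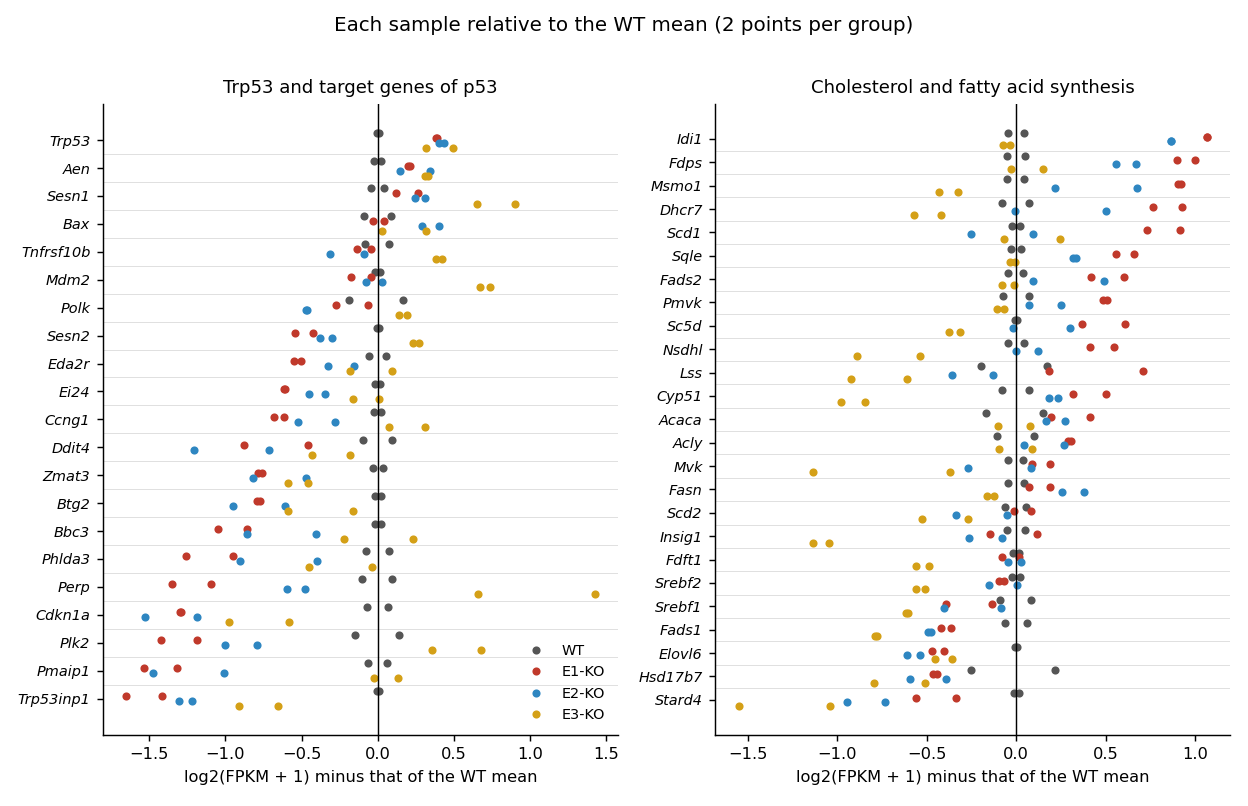
Each sample's log2(FPKM + 1) minus that of the WT mean for tested genes of the p53 list (left, with Trp53 itself) and of the cholesterol and fatty acid list (right), 2 points per group. Trp53inp1 and Cdkn1a lie far below 0 in E1-KO while Mdm2 and Bax stay near 0, and Idi1, Fdps, Msmo1 and Dhcr7 lie well above 0 while Insig1 does not.

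Of 18 tested genes of the basement membrane, 10 were lower (55.6%, beside 23.0% of all tested genes). Lama1, the alpha chain of the laminin of the early embryo, was 4.73 and 4.91 FPKM in E1-KO and 28.2 and 29.4 FPKM in WT. It was 10.8 and 13.1 FPKM in E2-KO and 9.03 and 9.71 FPKM in E3-KO, so that E1-KO lay below every other sample. Lama1 fell by 2.35 (SE 0.122, limma-trend adjusted p = 2.3e-05). Fn1, fibronectin, was 141 and 154 FPKM against 360.1 and 383 FPKM in WT and fell by 1.33 (SE 0.116). Hspg2, the proteoglycan perlecan, fell by 0.96 (SE 0.102) and Nid1, which links laminin to collagen, by 0.86 (SE 0.150). Itga3, a laminin receptor chain, rose by 1.19 (SE 0.147), and Sparc, a collagen-binding protein, by 0.71 (SE 0.110). Col4a1 was near its WT level (3.35 and 4.62 FPKM against 3.23 and 3.42 FPKM, adjusted p = 0.378). Of the 21 listed genes, 3 rose and 10 fell (55.6% of those tested), with 2, 3, 2 and 2 higher and 5, 7, 9 and 5 lower without each library.

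Sdc4, a syndecan that carries heparan sulfate and serves as a coreceptor for growth factors, was 13.4 and 14.2 FPKM in E1-KO and 81.03 and 81.92 FPKM in WT. The difference of -2.48 (SE 0.137, limma-trend adjusted p = 2.52e-05) made it the most lowered of the heparan sulfate list. Gpc3, a glypican, fell by 0.96 (SE 0.183), and Hs3st3b1, a sulfotransferase, by 1.17 (SE 0.178). Of 19 tested genes among 23 listed, none rose and 7 fell, with 5, 5, 5 and 4 lower without each library. The lower share of the tested heparan sulfate genes was 36.8%, beside 23.0% of all tested genes. Sdc1, Sdc3, Gpc1 and Gpc4 were not called.

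Of 12 tested genes of insulin and IGF signalling, 7 were lower (58.3%, beside 23.0% of all tested genes). Insr, the insulin receptor, was 1.54 and 2.23 FPKM in E1-KO and 6.18 and 6.99 FPKM in WT. Igf2r, which clears IGF2, was 12.8 and 15.2 FPKM against 35.3 and 39.4 FPKM. Igfbp4, a secreted IGF-binding protein, was 3.15 and 3.42 FPKM against 13.5 and 15.0 FPKM. All E1-KO values lay below WT, with differences of -1.40 (SE 0.172), -1.36 (SE 0.124) and -1.83 (SE 0.243) and limma-trend adjusted p-values of 0.000571, 0.00018 and 0.000823. Irs2, an adaptor of both receptors, fell by 1.08 (SE 0.152) and Igfbp2 by 0.87 (SE 0.127). Of 20 listed genes 19 had values and 12 were tested, and 1 rose and 7 fell (58.3%). The lower ones numbered 5 without any 1 library.

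Of 46 listed replication-dependent histone genes 43 were tested. Of these, 16 rose (37.2%, beside 15.0% of all tested genes), 27 were not called and none fell. The median difference was 0.60. Without each library 9, 16, 11 and 10 were higher and 0, 1, 0 and 1 lower, and quantile normalization gave 20 higher and 3 lower. Hist1h2ad was 83.9 and 115 FPKM in E1-KO and 22.6 FPKM in both WT samples (difference 2.07, SE 0.294, limma-trend adjusted p = 0.00107). Hist2h3b was 625 and 854 FPKM against 255 and 282 FPKM (difference 1.44, SE 0.154, limma-trend adjusted p = 0.000321). These genes are near-identical copies, so the split of reads among them is uncertain. Among tested DNA replication genes 27.8% were higher and 5.56% lower, beside 15.0% and 23.0% of all tested genes. DNA replication genes included Mcm5, a helicase subunit, which rose by 0.78 (SE 0.100), Rpa1, which binds single-stranded DNA, by 0.67 (SE 0.088), and Cdc6, which loads the helicase, by 0.66 (SE 0.099). That list had 36 tested of 39 listed, with 10 higher and 2 lower, and 5, 7, 6 and 5 higher and none lower without each library.

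Ribosomal protein genes were lower in 31.6% of cases, beside 23.0% of all tested genes, and higher in 2.53%, beside 15.0%. Of 81 listed 79 were tested, 2 rose and 25 fell (31.6%), with a median difference of -0.29, and 13, 15, 16 and 11 were lower without each library. Rps15a was 417 and 460.2 FPKM in E1-KO and 1255 and 1478 FPKM in WT, and Rps3 was 855 and 904 FPKM against 2543 and 2783 FPKM. Their mean levels were 3.12-fold and 3.03-fold lower, a difference of -1.64 (SE 0.211) and -1.60 (SE 0.215), at limma-trend adjusted p-values of 0.000724 and 0.000847. Such genes have many processed pseudogenes, which leaves their levels uncertain. In oxidative phosphorylation 8 of 80 tested genes rose and 21 fell (26.3%, near the 23.0% of all genes), and Cox7a2l, a supercomplex factor, fell by 1.37 (SE 0.123). Without each library 3, 3, 5 and 2 rose and 10, 14, 15 and 9 fell.

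Metabolic and stress lists differed in how many of their genes were called, beside 15.0% higher and 23.0% lower over all tested genes. Ldhb, the lactate dehydrogenase subunit that favours pyruvate, was 51.2 and 53.4 FPKM in E1-KO and 224 and 227 FPKM in WT, and fell by 2.09 (SE 0.137, limma-trend adjusted p = 4.55e-05). Slc2a3, a glucose transporter, fell by 1.21 (SE 0.092), but of 30 tested glycolysis and hypoxia genes 2 rose and 5 fell, and 2 were called in all 4 fits without a library. Gldc, of the glycine cleavage system, fell by 1.20 (SE 0.098), in a list of serine, glycine and threonine metabolism with 3 higher and 8 lower (42.1%) of 19, 3 of them called in all 4 such fits. The chaperones Calr and Hspa5 and the secreted factor Manf rose by 1.06 (SE 0.119), 0.73 (SE 0.102) and 0.79 (SE 0.157), while 14 of 18 tested genes of the unfolded protein response were not called. Nqo1 and Hmox1, which NRF2 induces, rose by 0.95 (SE 0.133) and 0.75 (SE 0.110). Gss, glutathione synthetase, fell by 1.09 (SE 0.110) and Gstm1 by 1.26 (SE 0.135), and the antioxidant list had 5 higher and 6 lower of 20, with 6 called in all 4 such fits. Gss overlaps Acss2, and Manf overlaps Dcaf1 and Rbm15b. In the integrated stress response none of 20 rose and 9 fell (45.0%), of which 2 (Nupr1 and Sesn2) fell in all 4 fits without a library.

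The remaining lists are given by their counts. Polycomb genes had 6 higher and 5 lower of 30, with 4 called in all 4 fits without a library, and genes of CTCF, cohesin and Mediator 5 and 3 of 29, with 2 called in all. Imprinted genes had 6 higher (27.3%) and 9 lower (40.9%) of 22, with 9 called in all (40.9%, beside 15.0% of all tested genes). Mest, a hydrolase expressed from the paternal allele, was 74.0 and 91.4 FPKM in E1-KO against 31.8 and 31.9 FPKM in WT, and rose by 1.34 (SE 0.158), and Nnat rose by 1.40 (SE 0.183). Mest and Nnat overlap Copg2 and Blcap. Cadherins and epithelial genes had 4 higher and 4 lower of 17 (3 in all), with the epithelial repressor Zeb1 higher by 1.02 (SE 0.190) and the tight junction gene Cldn4 lower by 1.36 (SE 0.166). Tetraspanins had 4 higher and 6 lower of 20 (4 in all), MYC and its partners 2 and 4 of 11 (1 in all), and S100 proteins 0 and 3 of 6 (2 in all). The SOX family, Sox2 included, had 1 higher and 2 lower of 5 (2 in all). Among 13 tested genes around Sox2 on its chromosome, 1 rose and 3 fell (3 in all), and among 8 genes known to hold a joint Sox-Oct element, 1 rose and 2 fell (2 in all), Sox2 included. Listed host genes of small nucleolar RNAs had no values here.

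The 12 genes that fell most include Grin1, S1pr1, Calb2 and Fabp3. Grin1, the obligate subunit of NMDA receptors, was 1.75 and 2.24 FPKM in E1-KO and 21.2 and 21.7 FPKM in WT. S1pr1, a receptor for sphingosine 1-phosphate, was 0.313 and 0.480 FPKM against 7.06 and 8.02 FPKM. Calb2, calretinin, was 2.11 and 3.00 FPKM against 18.8 and 20.5 FPKM. Fabp3, a fatty acid-binding protein, was 55.2 and 57.5 FPKM against 333 and 340.0 FPKM. All 4 were separate from WT, by -2.91 (SE 0.212), -2.61 (SE 0.242), -2.55 (SE 0.216) and -2.56 (SE 0.124), at limma-trend adjusted p-values of 6.62e-05, 0.000184, 0.000135 and 2.3e-05. Ly6g6e, Fabp3 and Arhgdib overlap other coding genes on the opposite strand. Ly6g6e, a GPI-anchored protein, fell by 2.72 (SE 0.187), S100a13, a calcium-binding protein, by 2.58 (SE 0.164), and Ccdc107 by 2.39 (SE 0.365).

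The genes that rose most include regulators of the cytoskeleton. Vill, a villin-like actin-binding protein, was 23.4 and 30.3 FPKM in E1-KO and 2.46 and 3.10 FPKM in WT. Arhgdib, an inhibitor of small GTPases, was 18.5 and 19.96 FPKM against 2.05 and 2.51 FPKM. Myl9, a myosin light chain of smooth muscle, was 15.8 and 31.7 FPKM against 1.11 and 2.97 FPKM, with the widest spread of the 3. The differences were 2.87 (SE 0.170), 2.63 (SE 0.233) and 3.02 (SE 0.353), at limma-trend adjusted p-values of 2.94e-05, 0.000168 and 0.000464. Dpf1, a neural subunit of the BAF chromatin remodeller, rose by 2.56 (SE 0.260) and Akr1b8, an aldo-keto reductase, by 2.199 (SE 0.174). A few genes without a symbol or with a predicted name were also among the 12 that rose most.

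Genes in which E1-KO differed from WT, E2-KO and E3-KO in the same direction numbered 57 (0.506% of those tested), 21 higher (0.186%) and 36 lower (0.320%). Only 94 genes (0.834%) were called between E1-KO and E2-KO and 2910 (25.8%) between E1-KO and E3-KO, and the first of these was the criterion that fewest genes met. In all 57 both E1-KO samples lay outside the other 6, as they did in 1994 tested genes (17.7%). The set was fragile, with 4 genes without E1-KO replicate 1, 5 without E1-KO replicate 2, 15 without WT replicate 1 and 13 without WT replicate 2. Of those, 1, 2, 14 and 12 were among the 57. No gene passed when limma-trend was fitted to the 2 groups of each comparison alone (610 had an unadjusted p under 0.05 in all 3 comparisons, as did 624 in the fit of all 8 samples), and 19 passed with replicate numbers fitted as blocks. The set holds Klf2, Tdrd12, Lama1 and Scd1, described above. It also holds Sox2, the gene by which E1-KO was chosen.

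The higher genes of this set include Igsf21, an adhesion protein of inhibitory synapses, at 4.76 and 5.84 FPKM in E1-KO and 0.777 to 1.75 FPKM in the other 6 samples. Des, the muscle intermediate filament desmin, was 10.9 and 11.5 FPKM against 3.99 to 6.08 FPKM. Gngt2, a G protein subunit of cones that overlaps Abi3, was 3.56 and 4.94 FPKM against 0.287 to 1.22 FPKM. For each of these genes the E1-KO samples were above all others, and the smallest of the 3 differences was 1.28 (SE 0.163), 0.96 (SE 0.163) and 1.31 (SE 0.248). Cpne5, a calcium-dependent membrane-binding protein, and Steap2, a metal reductase of membranes, rose by 0.85 (SE 0.136) and 0.94 (SE 0.147) against WT. Hoxc10, a homeobox gene of the posterior body that overlaps Hoxc5, was 4.11 and 5.53 FPKM against 0.843 to 2.34 FPKM. Its call against WT (0.86, adjusted p = 0.00862) was lost without E1-KO replicate 2 (0.68, adjusted p = 0.0656) and without WT replicate 1 (0.79, adjusted p = 0.0585).

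The lower genes include Aspa, an enzyme that splits N-acetylaspartate, at 5.24 and 9.29 FPKM in E1-KO and 22.9 to 33.8 FPKM in the other 6 samples. Hspb8, a small heat shock protein, was 21.3 and 24.7 FPKM against 37.3 to 77.1 FPKM. Kbtbd11, an adaptor of a ubiquitin ligase, was 1.42 and 1.80 FPKM against 3.38 to 6.72 FPKM. H2-Eb1, a chain of the class II antigen-presenting molecules, was 1.88 and 2.99 FPKM against 5.54 to 8.97 FPKM. All E1-KO samples of these genes were the lowest, with differences from WT of -1.62 (SE 0.208), -1.65 (SE 0.161), -1.49 (SE 0.154) and -1.40 (SE 0.184). Sgcz, a sarcoglycan, Akr1c18, a progesterone-metabolising reductase, Igll1, a surrogate light chain, and Tmc6, which overlaps Tmc8, fell by 1.42 (SE 0.182), 1.13 (SE 0.212), 0.99 (SE 0.192) and 0.99 (SE 0.131).

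Pramel6 and Pramel7, members of the PRAME family that act in the naive state, were both lower. Pramel7 was 4.57 and 4.83 FPKM in E1-KO and 8.31 to 18.6 FPKM in the other 6 samples, and fell by 0.95 (SE 0.110, limma-trend adjusted p = 0.00045). Pramel6 was 6.70 and 12.7 FPKM against 21.9 to 83.3 FPKM. Its difference from WT of -1.18 became -0.77 without E1-KO replicate 1 (adjusted p = 0.0767) and -1.16 without WT replicate 2 (adjusted p = 0.0629). The family has many near-identical copies, so its levels are uncertain. Serpina3n, a protease inhibitor of another such family, was 1.08 and 1.16 FPKM against 2.49 to 34.9 FPKM, and its call against WT was lost without WT replicate 2 (-0.72, adjusted p = 0.0523). Egfr, the receptor of epidermal growth factor, was 0.522 and 0.525 FPKM in E1-KO and 1.51 to 2.89 FPKM elsewhere, and fell by 0.81 (SE 0.164, limma-trend adjusted p = 0.00559).

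**Figure D5:**
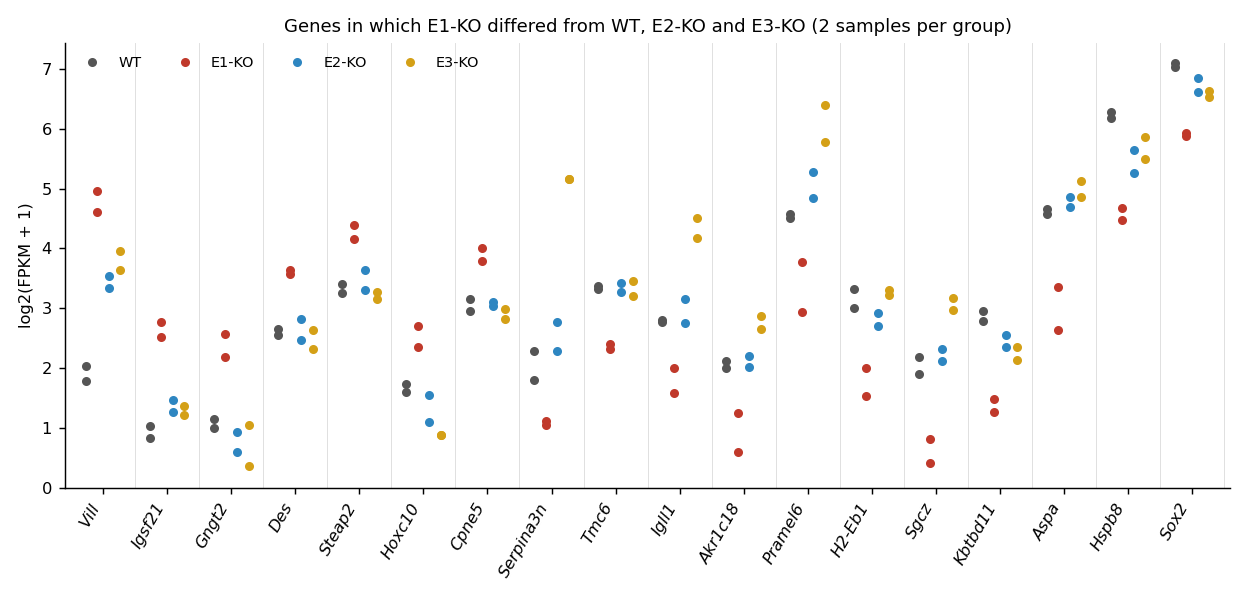
Level of 18 genes in which E1-KO differed from all 3 other groups, as log2(FPKM + 1) in each of the 8 samples (2 points per group). In each gene both E1-KO points (red) lie outside the 6 others, above them for the first 7 genes and below them for the rest.

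The labelled cell type was matched by its markers, with summed levels of 7 embryonic stem cell markers at 1551 and 1617 FPKM in E1-KO and 1478 and 1536 FPKM in WT. Pou5f1 and Nanog make up most of these sums, and the 7 genes did not move together. Sox2 was lower and Lin28a higher in E1-KO, as given above, so the sums do not show unchanged levels. The few markers chosen for other cell types had low sums in all 4 samples. The longer lists of such genes did not all have low sums. Neural list genes summed to 136.3 and 152.1 FPKM in E1-KO and 114.5 and 123.6 FPKM in WT. Trophectoderm list genes summed to 95.96 and 101.5 FPKM against 118.7 and 130.6 FPKM. Primitive endoderm list genes, mostly Sparc, summed to 150.8 and 158.4 FPKM against 94.92 and 101.2 FPKM, the opposite direction to their few markers. Markers of fibroblasts, which serve as feeder cells elsewhere, summed to 3.49 and 3.52 FPKM in E1-KO and 1.57 and 1.14 FPKM in WT over 8 genes. Of these 8 genes, 4 were at 0 in both E1-KO samples and 2 in all 4 samples. Of the 14 genes of the fibroblast list 4 were tested, 2 rose and 1 fell. Acta2, at 2.42 and 6.19 FPKM against 0.122 and 0.127 FPKM, rose by 2.14 (SE 0.303) and Thy1 by 1.03 (SE 0.163). Mmp2 fell by 1.84 (SE 0.138). Neural markers, of which 3 of 6 had values, summed to 3.96 and 4.23 FPKM against 1.80 and 2.54 FPKM. Of the 24 genes of the neural list 8 were tested, 4 rose and 1 fell, and 1, 3, 2 and 2 were higher without each library. Pax6, an eye and forebrain factor, was 2.28 and 2.50 FPKM in E1-KO and 0.315 and 0.555 FPKM in WT, and rose by 1.24 (SE 0.218), while Msi1, an RNA-binding protein of neural progenitors, fell by 0.80 (SE 0.125). Trophectoderm markers summed to 1.496 and 2.43 FPKM in E1-KO and 2.249 and 2.96 FPKM in WT, and of 12 tested genes of that list 1 rose and 4 fell (3 called in all 4 fits without a library), with Tfap2c lower by 1.01 (SE 0.120). The trophectoderm shares were 8.33% higher and 33.3% lower, beside 15.0% and 23.0% of all tested genes. Primitive endoderm markers summed to 0.737 and 0.739 FPKM against 1.55 and 1.65 FPKM. Mesoderm markers summed to 6.17 and 7.88 FPKM against 5.92 and 6.85 FPKM. Of 4 tested genes of the primitive endoderm list 1, Sparc, rose and 1, Hnf4a, fell by 0.84 (SE 0.156). Of 2 tested genes of mesoderm and definitive endoderm 1 fell, Gsc, at 0.622 and 1.41 FPKM against 6.855 and 7.39 FPKM (difference -2.04, SE 0.244). None of the 13 genes of the 2-cell embryo with values reached a mean of 1 FPKM. The part that such cells have in the results above was not tested.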

How the data were processed

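RNA-seq levels of 8 samples (4 groups, 2 replicates each) were taken as the authors deposited them. The deposited values are FPKM, a unit inferred from the submitters' processing notes, which name Trimmomatic 0.36, TopHat2 2.0.12, Cufflinks 2.2.1 and the mm9 build. The library kit takes total RNA and reads were paired, of 150 bases, per the labels' protocols. The read depth per sample is unknown, so no counting intervals are given. Of 17812 gene identifiers, 17262 have a symbol and 660 had more than 1 row. Of the repeated ones, 574 were matched by position and 86 left out, so that 17726 were used. Values were fitted as log2(FPKM + 1) with limma-trend (limma 3.58.1, R 4.3.3) for genes whose mean reached 1 FPKM, with all 8 samples in 1 fit that has 4 residual degrees of freedom, and p-values were adjusted by the Benjamini-Hochberg method. The fit was tested on simulated data. Alternatives of scaling, filter, pseudocount, threshold, replicate block and left-out libraries are given at the end. Gene lists and members were chosen with earlier results of these data known. Named genes are Sox2, up to 4 called genes per list by size of change, the 12 genes that rose and 12 that fell most, and 10 per direction that differed from all other groups; other list members are given with their values, and a few genes are not reported here. Promoter windows are RefSeq's on GRCm38.p6.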

Additional observations from a re-analysis of the deposited data

Results flagged for a closer look

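In the 18 genes below, E1-KO differed from E2-KO and from E3-KO as well as from WT; besides Sox2 they are those whose smallest difference was largest in each direction, and other genes of the 57 are not repeated. Each difference was tested by limma-trend, and the smaller of the differences from E2-KO and E3-KO is given on the log2(FPKM + 1) scale. The smaller difference was -0.66 for Sox2, the gene by which E1-KO was chosen. Among the higher genes it was 0.99 for Vill, 1.61 for Gngt2, 1.28 for Igsf21, 0.96 for Des, 1.20 for Hoxc10, 0.83 for Cpne5 and 0.80 for Steap2. Among the lower genes it was -1.77 for Aspa, -1.60 for Sgcz, -1.70 for Pramel6, -1.18 for Akr1c18 and -1.06 for H2-Eb1. It was -1.16 for Igll1, -0.98 for Tmc6, -1.45 for Serpina3n, -0.87 for Hspb8 and -0.86 for Kbtbd11. Groups of 2 are too small for a test of single outlying samples.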

How the results depend on the processing

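Sox2 was called as lower in E1-KO than in WT under every alternative tried, with differences from -1.09 (median-ratio scaling) to -1.26 (quantile normalization). E1-KO was chosen by this loss, so these values are no independent check of it. The number of genes called between E1-KO and WT, 4283, ranged from 2039 to 2578 when 1 library was left out, and was 2250 at an adjusted p under 0.01 and 707 with a minimum difference of 1 log2 unit. The 57 genes that differed from all other groups ranged from 4 to 15 when 1 library was left out. They numbered 1 with no filter on low values (none of it among the 57), 37 with a mean of at least 5 FPKM, 0 by limma-trend when each comparison used its own 2 groups alone (610 at an unadjusted p under 0.05), 19 with the replicate block, 0 at an adjusted p under 0.01 and 10 with a minimum difference of 1. Counted over lists, 348 listed genes were called, 186 to 233 when 1 library was left out, 214 at an adjusted p under 0.01 and 103 with a minimum difference of 1. Of 415 other genes given or counted by name, 167 lost their call without E1-KO replicate 1, 131 without E1-KO replicate 2, 138 without WT replicate 1 and 179 without WT replicate 2, and none reversed. Under the other settings at most 61 of those tested lost their call, apart from the stricter thresholds (147 and 276), and with a mean of at least 5 FPKM 348 of them were tested. Deviations from the group means were not shared by samples with the same number (mean correlation 0.005 over 6 pairs of groups, range -0.043 to 0.089), so the numbers were not taken to pair samples. The replicate block gave 4056 calls between E1-KO and WT and, for Sox2 in E1-KO against WT, a difference of -1.16 (limma-trend adjusted p = 0.000528). Read depth is unknown and 2 samples per group limit the precision. Genes near 1 FPKM have differences that the pseudocount of 1 understates.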

Other observations

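Several genes of neuronal structure, chosen after their values were seen and on no list, were higher in E1-KO. Ina, an intermediate filament of neurons, was 8.06 and 10.4 FPKM in E1-KO and 1.60 and 1.73 FPKM in WT. Prph, the filament protein peripherin, was 5.63 and 7.48 FPKM against 1.03 and 1.27 FPKM. Islr2, a membrane protein of growing axons, was 6.79 and 7.91 FPKM against 0.897 and 1.38 FPKM. The groups were separate in all 3, with differences of 1.93 (SE 0.168), 1.80 (SE 0.162) and 1.97 (SE 0.203). Pou4f2, a factor of retinal ganglion cells, was 3.21 and 4.002 FPKM against 0.194 and 0.246 FPKM, and Gng3, a G protein subunit, was 14.7 FPKM in both E1-KO samples against 2.402 and 3.053 FPKM. The last 2 rose by 1.91 (SE 0.157) and 2.08 (SE 0.150). Ina, Islr2 and Gng3 overlap Nt5c2, Islr and Bscl2. Grin1 and Calb2, which neurons also use, were lower, as given above.

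Across chromosomes with genes of at least 5 FPKM, the median ratio of each E1-KO sample to WT, relative to the rest of the genes, lay between -0.09 and 0.048 on the log2 scale.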
